A study of Rattus norvegicus with 151 samples.

Results

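The transcripts followed here encode enzymes of fatty acid synthesis and a small protein that accompanies them: Acly, Acss2, Me1, Acaca, Fasn, Scd, Elovl5, Elovl6 and Thrsp. The members were chosen by name, as the probe sets annotated to 1 of these genes, and the brightest probe set of each gene in each tissue was read. They are 9 genes with 16 probe sets, of 14218 named genes and 31099 probe sets on the array. Their log2 signal was followed over all doses of 3 chemicals in rat liver and kidney, each dose against the vehicle group of its own chemical, with the spread between animals.

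Animals make fatty acids in the cytosol by joining units of acetyl-CoA and then lengthening and desaturating the chain. The liver does this mostly after a carbohydrate meal, when insulin and glucose raise the transcription factors encoded by Srebf1 and Mlxipl, and the enzymes are held low in fasting. The same Srebf family, with Srebf2 as its main member there, drives the genes of cholesterol synthesis. Fat tissue makes and stores fatty acids with the same enzymes.

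The series was part of toxicology work on the chemicals of a spill into a West Virginia river. Male Harlan Sprague-Dawley rats of 6 to 8 weeks received a chemical in corn oil by gavage on 5 days, and liver and kidney RNA was read on Affymetrix Rat Genome 230 2.0 arrays, with 1 array per tissue sample. All groups were of 1 sex and strain and carried the same oil, and no genetic change was made. One chemical was MCHM, methylcyclohexanemethanol, another was crude MCHM, a commercial mixture with MCHM as its main part, and the last was PPH, propylene glycol phenyl ether. For each form of MCHM there were low doses of 0.1 and 1, middle doses of 10 and 100, and high doses of 300 and 500 mg/kg. The doses of PPH were 1 and 10, then 100 and 500, with 1000 mg/kg at the top. The analysis took in 81 liver and 69 kidney arrays, or 150 of the 151 deposited, in 40 groups. Liver groups held 4 arrays, except vehicle groups of 5 for MCHM and PPH and 3 arrays at 0.1 mg/kg crude MCHM. Kidney groups held 4 or 5 arrays for MCHM and PPH, except 3 at 0.1 mg/kg MCHM and 3 at 500 mg/kg PPH, and only 2 or 3 for crude MCHM. Samples are named here by the replicate number in their label, and those of the crude MCHM and PPH sets by the end of the label, as in PPH-203. The p-values set a difference against the spread between these samples, pooled over the groups of a fit.

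The median log2 signal of an array ranged from 5.215 to 5.376, and its median correlation with the arrays of its own set from 0.9869 to 0.9954. The 3′ minus 5′ log2 signal of the beta-actin control probe sets, read as a sign of RNA quality, differed between sets. Its vehicle means for MCHM, crude MCHM and PPH were 1.99, 1.25 and 1.19 in liver and 1.29, 2.56 and 2.70 in kidney. The part of RNA quality in differences between sets or tissues was not tested. The kidney of replicate 13 at 0.1 mg/kg MCHM was not used, since the median r of its column with the other kidneys was 0.401 as deposited and 0.952 once every value had been moved by 1 position. The 8 hepatocyte markers were above the filter level in every liver, with an array mean between 13.86 and 14.01, and the 11 kidney epithelium markers were above it in every kidney, with means between 10.99 and 11.44. The mean of the hepatocyte markers lay between 4.09 and 7.76 in kidneys, with 2 kidneys over 6 (MCHM vehicle replicate 4 and Crude_MCHM-119 of 1 mg/kg). Some marker genes were called in liver at the highest doses. Of all genes, 0.512% were called there with MCHM, 0.675% with crude MCHM and 1.75% with PPH. Of 8 lymphocyte markers tested, 1 was lower with MCHM, 2 with crude MCHM and 0 with PPH. Of the 8 hepatocyte markers, Apoa1 was lower with crude MCHM (-0.31, limma adjusted p 0.0318) and with PPH (-0.28, 0.0417). With PPH the kidney epithelium marker Slc22a8 was lower (-0.60, limma adjusted p 0.00976), 1 of 7, and 1 of 9 fat cell markers, Cidea, was higher. Of the macrophage, endothelium and fibroblast markers 0 were called in liver. In kidney 1 marker was called, the macrophage marker Adgre1, lower with 1000 mg/kg PPH (-0.80, limma adjusted p 0.0204), where 2.03% of genes were called. The fat cell marker Adipoq stayed at or below 4.29 in all livers, under the filter level of 4.69. Their part in the differences described next was not tested, and in bulk tissue fewer cells of a type and less RNA per cell cannot be told apart.

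In vehicle rats the members divided by tissue. Acly, the enzyme that splits citrate to give cytosolic acetyl-CoA, Acaca, which carboxylates it to malonyl-CoA, Fasn, the synthase that builds palmitate, Scd, the desaturase that makes oleate, Elovl5, an elongase of polyunsaturated chains, and Thrsp, the spot 14 protein of lipid-making tissues, were higher in liver than in kidney in each of the 3 sets. Acss2, which makes acetyl-CoA from acetate, was higher in kidney in each set. Elovl6 is the elongase that turns palmitate into stearate, and Me1 the malic enzyme that supplies NADPH for the synthase. With the probe set used in both tissues, neither passed the test in any set. This gave 7 of 9 members called in the vehicle rats of each set, where 76.9%, 75% and 77.7% of all genes were called in the MCHM, crude MCHM and PPH sets, so the count is near that of genes in general.

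Thrsp and Scd were low in most kidneys. Their means in vehicle kidneys were 5.91 and 6.37 in the crude MCHM set, and 5.27 and 6.02 in the PPH set. In the MCHM set Thrsp read 10.72 ± 0.27 (SD, n = 5) in liver and 4.56 ± 1.71 (SD, n = 5) in kidney for the probe set used in both tissues, and 1 of 5 kidneys, replicate 3, was above the filter level of 4.66. With the lower kidneys set to that level, Thrsp was at least 5.48 log2 units higher in liver (limma adjusted p of the measured difference 3.03e-07). The measured difference was 6.16 and became 6.92 without the kidney of replicate 3. Scd read 10.44 ± 0.63 against 5.59 ± 1.77 (SD, n = 5 each), with 4 of 5 kidneys above the filter level. It lay 4.85 units higher in liver, or 5.63 without the kidney of replicate 3. Elovl5 lay 2.17 units higher with little spread, at 12.36 ± 0.05 against 10.19 ± 0.07. Acaca differed by 1.74, Fasn by 1.46 and Acly by 1.33 units. Acss2 went the other way by -2.21 units, at 9.80 ± 0.12 in liver and 12.01 ± 0.39 in kidney. Elovl6 differed by -0.02 (95% interval -0.49 to 0.45) and Me1 by -0.24 (-0.50 to 0.02). The other probe set of each of these genes read higher in kidney in each set, which was not tested. In the MCHM vehicle rats, that of Me1 read 8.29 in liver and 9.47 in kidney. That of Elovl6 read 5.75 and 6.67.

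The genes lie on 5 chromosomes of the RefSeq assembly GRCr8. Acaca lies at chr10:69511627-69773888, Acly at chr10:85912402-85964605 and Fasn at chr10:106570415-106588581. Elovl5 lies at chr8:87671164-87737618 and Me1 at chr8:96429057-96540244. Thrsp lies at chr1:161134640-161138964 and Scd at chr1:253218968-253232101. Elovl6 lies at chr2:220738095-220845528 and Acss2 at chr3:164464124-164507607. RefSeq promoter sequences were held for 6 of the 9 genes and not for Fasn, Elovl6 and Acaca.

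The 250 bases before the start of transcription are shown for Acly, which rose with MCHM, and for Me1, Acss2 and Elovl5, which changed with PPH, because the factors of the Srebf family are known to act near the start beside proteins that bind CCAAT and GC boxes. Capitals mark matches to CCAAT, which reads ATTGG where it lies on the opposite strand. They also mark matches to GGGCGG, which then reads CCGCCC. Both strands were searched. The 4 windows are chr10:85963632-85963881 (minus strand), chr8:96540245-96540494 (minus strand), chr3:164464453-164464702 (plus strand) and chr8:87670914-87671163 (plus strand), in the order printed, and each sequence reads 5′ to 3′ towards the start.
Acly: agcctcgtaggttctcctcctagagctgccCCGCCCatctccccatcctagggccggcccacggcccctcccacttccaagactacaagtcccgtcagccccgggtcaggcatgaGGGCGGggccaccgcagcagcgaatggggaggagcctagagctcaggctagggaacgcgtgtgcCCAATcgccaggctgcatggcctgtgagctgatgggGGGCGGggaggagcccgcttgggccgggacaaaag
Me1: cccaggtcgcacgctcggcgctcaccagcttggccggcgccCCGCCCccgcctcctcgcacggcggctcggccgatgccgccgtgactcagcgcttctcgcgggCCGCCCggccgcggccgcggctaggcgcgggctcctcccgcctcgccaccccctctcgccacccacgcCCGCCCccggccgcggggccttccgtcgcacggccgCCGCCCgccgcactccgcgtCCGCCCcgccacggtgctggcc
Acss2: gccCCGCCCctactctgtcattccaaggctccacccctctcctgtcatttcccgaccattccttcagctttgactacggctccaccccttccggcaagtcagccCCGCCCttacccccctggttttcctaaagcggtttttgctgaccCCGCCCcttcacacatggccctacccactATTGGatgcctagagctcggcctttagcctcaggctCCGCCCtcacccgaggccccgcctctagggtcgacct
Elovl5: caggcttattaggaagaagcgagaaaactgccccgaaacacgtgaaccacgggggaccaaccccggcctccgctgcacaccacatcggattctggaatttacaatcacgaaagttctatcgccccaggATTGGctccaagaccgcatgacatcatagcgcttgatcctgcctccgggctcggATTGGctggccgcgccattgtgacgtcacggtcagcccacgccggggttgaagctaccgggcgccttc

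Acly held GGGCGG 3 times and CCAAT once, 71 bases before the start. Me1 held GGGCGG 5 times and no CCAAT, in a window of 83.2% G and C. Acss2 held GGGCGG 4 times and CCAAT once, 73 bases before the start. Elovl5 held CCAAT 2 times, the nearer one 68 bases before the start, no GGGCGG, and the E-box CACGTG near the far end of the window, printed in lower case. The Thrsp window had 1 of each of the first motifs and that of Scd had neither. The sterol regulatory element TCACCCCAC was in none of the 6 windows. Among 33469 RefSeq promoters of the same length, 34% held CCAAT, 30.5% held GGGCGG, 10.1% held both, 5.59% held CACGTG and 0.409% held TCACCCCAC. The start used for Acly, Acss2 and Scd lies inside the outer bounds of the gene. These matches describe the letters of the windows only.

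With 500 mg/kg MCHM Acly, Fasn and Elovl6 rose in liver, and for Thrsp every treated array also lay above every vehicle array without a call. Acss2 lay slightly higher, Elovl5 slightly lower, and Scd overlapped widely. So 3 of 9 members rose and 0 fell, where 0.512% of 11335 genes were called in either direction. For 6 members the groups did not overlap, 5 of them higher with MCHM, against 5.54% of all genes. The median difference of the 9 members was 0.52 log2 units, against 0.01 for all genes.

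Acly read 10.76, 10.71, 11.00, 10.34 and 11.13 log2 units in the vehicle livers and 11.91, 11.34, 11.49 and 12.03 at 500 mg/kg. All 4 treated livers were above the highest vehicle liver. The difference was 0.90 ± 0.19 (SE), or 1.87-fold, with a 95% interval of 0.51 to 1.30 and a limma adjusted p of 0.0272. Elovl6 read 7.82, 7.27, 8.10, 7.03 and 8.09 in vehicle livers and 8.78, 8.39, 9.24 and 9.37 at 500 mg/kg. Its vehicle livers split into a pair near 7 and the others near 8, and all treated livers were higher still. It rose 2.43-fold, by 1.28 ± 0.29 (SE), with a limma adjusted p of 0.038, and its second probe set rose by more, from 5.75 to 7.37. Fasn read 9.50, 9.18, 9.84, 9.24 and 9.41 in vehicle livers and 10.41, 9.94, 10.07 and 10.50 in treated ones. The gap between the groups was narrow, and Fasn was 1.74-fold higher with a limma adjusted p of 0.0488. This call lay close to the threshold: it was made in 7 of 29 fits with 1 array left out, arrays of other doses included, and not without the filter on low values (limma adjusted p 0.0604). Acly was called in 24 and Elovl6 in 23 of these 29 fits.

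Thrsp read 10.39, 10.81, 10.85, 10.60 and 11.08 in vehicle livers and 11.83, 11.68, 11.89 and 12.11 at 500 mg/kg, with all treated livers above all vehicle livers. Its difference of 1.13 ± 0.34 (SE) did not pass the test (limma adjusted p 0.122), in a fit that pools the spread of all groups of the set. Acaca read 8.82, 9.07, 9.17, 8.83 and 9.10 against 9.72, 9.37, 9.15 and 9.85, so that 1 treated liver stayed among the vehicle values (difference 0.52, limma adjusted p 0.133). Me1 differed by 0.41 (limma adjusted p 0.207), Acss2 by 0.28 (0.302) and Elovl5 by -0.12 (0.456). Scd read 9.82, 10.07, 10.63, 11.45 and 10.23 against 11.63, 9.87, 9.87 and 11.80: 2 treated livers were above all vehicle livers and 2 near the lowest (difference 0.35, limma adjusted p 0.809). For the 6 genes with several probe sets, all probe sets of a gene had the same sign.

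At lower doses of MCHM no member was called in liver. At 300 mg/kg, where 0.0265% of genes were called, Acly read 11.49, 11.24, 11.30 and 11.39, all above the vehicle livers, and was the only member of the 9 without overlap, against 2.99% of genes. Its difference was 0.56 with a limma adjusted p of 0.471. At 0.1, 1, 10 and 100 mg/kg, 0 members and 0% of all genes were called, and the members' median differences were -0.02, 0.35, -0.18 and 0.05. The order was not one of dose: at 1 mg/kg 8 of 9 members lay above the vehicle mean and at 10 mg/kg 8 of 9 below it. At 1 mg/kg the spread was wide, with Thrsp at 10.26, 12.27, 10.43 and 11.60 and Fasn at 9.69, 10.34, 9.02 and 10.08. The same replicates, 16 and 20, gave the high values of both genes.

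Over the ranked doses of MCHM, with the vehicle lowest, Acly rose by 0.13 log2 units per dose step (limma adjusted p 0.00834), Fasn by 0.13 (0.00797) and Elovl6 by 0.18 (0.0148). These 3 of 9 members were called for a trend, where 2.38% of genes were. Thrsp had the same step as Acly, 0.13, with a limma adjusted p of 0.139. The calls at 500 mg/kg rest on few animals: without vehicle replicate 3, 4 or 7, or without 500 mg/kg replicate 40 or 43, 0 members passed, and without replicate 42 only Acly did, while the 3 differences kept their sign. In a fit of all liver arrays together only Elovl6 was called.

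**Figure D1:**
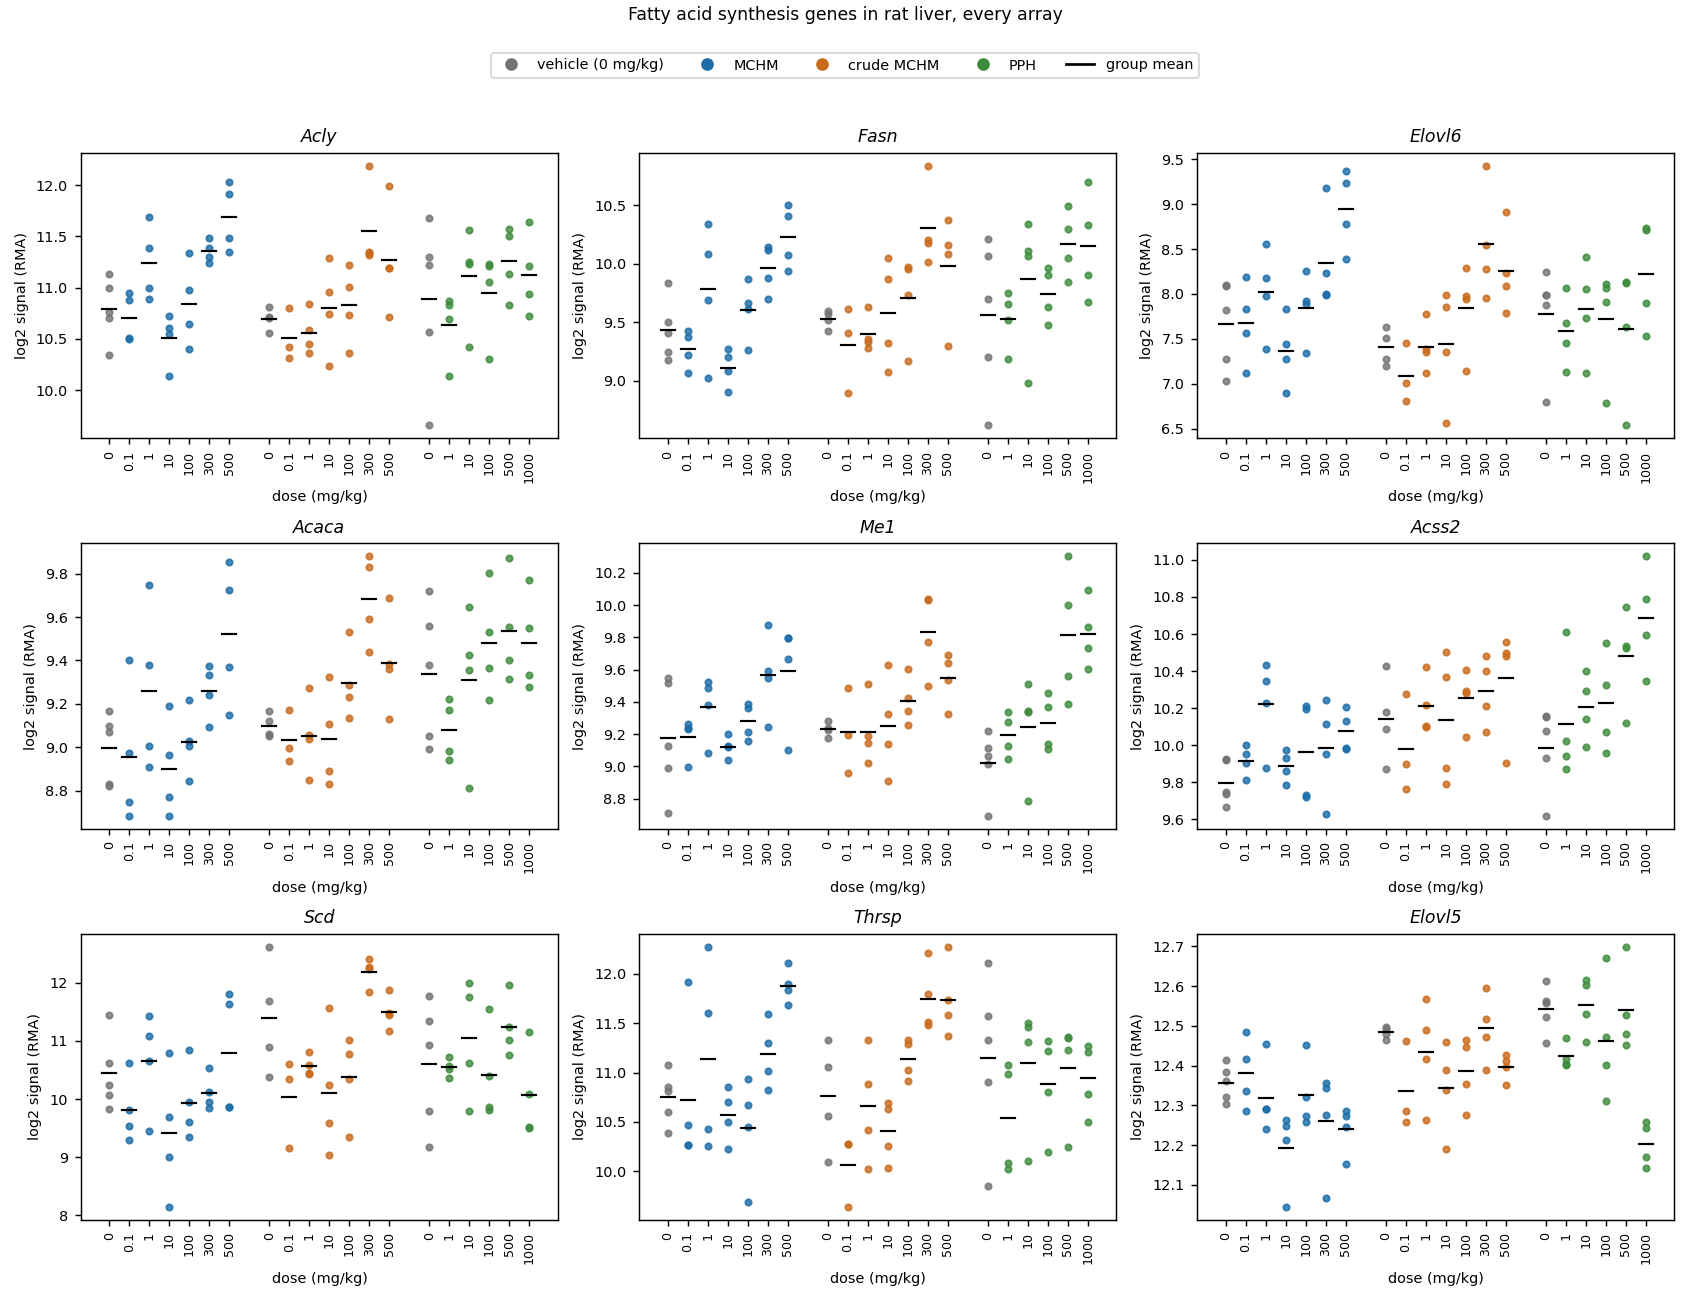
Log2 signal (RMA) of each member in every liver array (vertical axes, scaled separately per gene) against the dose in mg/kg of MCHM, crude MCHM and PPH with its own vehicle at 0; points are arrays and bars are group means. Acly, Fasn, Elovl6 and Thrsp of 500 mg/kg MCHM lie above the vehicle points, and Elovl5 of 1000 mg/kg PPH lies between 12.14 and 12.26, below its vehicle points.

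With crude MCHM the calls in liver came at 300 mg/kg, and the difference between 300 and 500 mg/kg was not tested. Acaca and Me1 rose at 300 mg/kg, all 9 members were above the vehicle mean, and 6 of them had no overlap with the vehicle livers, all higher. With 500 mg/kg 0 members were called. The calls at 300 mg/kg were 2 of 9, where 1.01% of 11402 genes were called, and the overlap count compares with 9.01% of genes. The members' median difference was 0.78 log2 units, against 0.02 for all genes.

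Acaca read 9.06, 9.12, 9.17 and 9.05 in vehicle livers and 9.83, 9.59, 9.44 and 9.88 at 300 mg/kg. The vehicle livers lay within a narrow band and all treated ones above it. The difference was 0.58 ± 0.12 (SE), or 1.5-fold, with a limma adjusted p of 0.0269. Me1 read 9.18, 9.23, 9.24 and 9.28 in vehicle livers and 10.03, 9.77, 9.50 and 10.04 at 300 mg/kg. It was 1.52-fold higher (0.60 ± 0.14 SE, limma adjusted p 0.0402), and its second probe set rose by 0.85.

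The larger differences at this dose belonged to members that were not called. Elovl6 read 7.63, 7.20, 7.51 and 7.27 against 8.28, 8.54, 7.95 and 9.43 (difference 1.15, limma adjusted p 0.0703). Thrsp read 11.06, 10.10, 11.33 and 10.56 against 11.79, 11.48, 11.51 and 12.21 (0.99, limma adjusted p 0.0745). Acly read 10.72, 10.81, 10.56 and 10.70 against 11.31, 11.35, 11.34 and 12.19 (0.85, limma adjusted p 0.0846). In all of them the groups were apart, and Crude_MCHM-138 gave the highest treated value. Fasn differed by 0.78 (limma adjusted p 0.105) and also had no overlap. Scd, at 10.38, 11.69, 10.89 and 12.61 in vehicle livers and 11.85 to 12.40 at 300 mg/kg, differed by 0.80 with a limma adjusted p of 0.445. Acss2 differed by 0.15 and Elovl5 by 0.01.

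With 500 mg/kg crude MCHM, where 0.675% of genes were called and 0 members, Thrsp read 11.37, 11.74, 11.59 and 12.27 and Elovl6 8.08, 7.79, 8.24 and 8.92, both above all vehicle livers. Thrsp differed by 0.98 (limma adjusted p 0.0889) and Elovl6 by 0.85 (0.213). Acly, with 1 treated liver at 10.72 among the vehicle values, differed by 0.58 (0.283). Me1 lay higher without overlap (0.32, limma adjusted p 0.328) and Elovl5 lower without overlap (-0.09, 0.646), so 4 members had no overlap, against 8.37% of genes. The other 4 differed by 0.10 to 0.45 with limma adjusted p between 0.296 and 0.957. With array weights Thrsp alone was called (1.03, limma adjusted p 0.0414).

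At 0.1, 1, 10 and 100 mg/kg crude MCHM 0 members and 0% of genes were called. At 0.1 mg/kg all 9 members lay below the vehicle mean, with a median of -0.18, and at 100 mg/kg 7 lay above it. Over the ranked doses 6 of 9 members rose, where 1.91% of genes were called: Thrsp by 0.24 per dose step (limma adjusted p 0.0014), Elovl6 by 0.21 (0.0119), Acly by 0.15 (0.0231), Fasn by 0.13 (0.0329), Acaca by 0.09 (0.0113) and Me1 by 0.09 (0.0251). Scd, Acss2 and Elovl5 were not called (limma adjusted p 0.185, 0.29 and 0.993). With 1 array left out, the trends of Acaca, Elovl6 and Thrsp were called in 27 of 27 fits, that of Acly in 24, Me1 in 23 and Fasn in 19. Without Crude_MCHM-110 of 0.1 mg/kg the calls fell to Acaca, Elovl6 and Thrsp. The Fasn trend was also lost without Crude_MCHM-105, Crude_MCHM-106 or Crude_MCHM-108 of the vehicle group, Crude_MCHM-138 of 300 mg/kg, or Crude_MCHM-139, Crude_MCHM-143 or Crude_MCHM-144 of 500 mg/kg, the Acly trend without Crude_MCHM-106 or Crude_MCHM-144, and the Me1 trend without Crude_MCHM-105, Crude_MCHM-139 or Crude_MCHM-143. The 2 calls at 300 mg/kg were lost without vehicle Crude_MCHM-104, Crude_MCHM-105 or Crude_MCHM-108 or Crude_MCHM-134 or Crude_MCHM-138 of 300 mg/kg, and Acaca alone was left without vehicle Crude_MCHM-106, Crude_MCHM-135 of 300 mg/kg, Crude_MCHM-143 of 500 mg/kg or Crude_MCHM-114 of 0.1 mg/kg, without the filter, or after a further quantile normalization.

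With 1000 mg/kg PPH Me1 and Acss2 rose in liver and Elovl5 fell, and in these 3 the treated and vehicle livers did not overlap. Acly, Fasn, Elovl6, Thrsp, Scd and Acaca overlapped with their vehicle values. The 3 calls of 9 stand beside 1.75% of 11342 genes called, and the 3 members without overlap beside 6.04% of genes. The members' median difference was 0.24 log2 units, against 0.03 for all genes.

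Me1 read 9.06, 8.69, 9.22, 9.01 and 9.11 in the vehicle livers and 9.73, 9.60, 9.86 and 10.10 at 1000 mg/kg. All treated livers were above all vehicle livers, by 0.80 ± 0.16 (SE) on average, or 1.75-fold (limma adjusted p 0.0107). Acss2 read 9.93, 9.62, 10.07, 10.15 and 10.16 against 10.35, 10.59, 11.02 and 10.79, and was 1.63-fold higher (0.70 ± 0.17 SE, limma adjusted p 0.0282). Elovl5 read 12.56, 12.56, 12.61, 12.52 and 12.46 against 12.17, 12.14, 12.24 and 12.26. It is the steadiest member, and a difference of only -0.34 ± 0.07 (SE), to 0.791 of the vehicle level, passed with a limma adjusted p of 0.00883. Its second probe set was lower by a similar amount, at -0.30.

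The vehicle livers of the PPH set were widely scattered for the other members. Acly read 11.22, 9.66, 11.68, 10.57 and 11.30 in vehicle livers and 10.94, 10.72, 11.21 and 11.64 at 1000 mg/kg (difference 0.24, limma adjusted p 0.788). Fasn read 9.70, 8.63, 10.21, 9.21 and 10.06 against 9.67, 9.91, 10.33 and 10.69 (0.59, limma adjusted p 0.345). Scd read 11.34, 9.80, 11.78, 9.17 and 10.93 against 9.53, 9.51, 10.08 and 11.15 (-0.54, limma adjusted p 0.68). Vehicle PPH-203 was the lowest for Acly, Fasn and Elovl6. The SD of the vehicle livers was 0.79 for Acly and 0.65 for Fasn, against 0.10 and 0.07 in the crude MCHM set. Elovl6 differed by 0.44, Acaca by 0.14 and Thrsp by -0.21, with limma adjusted p between 0.639 and 0.859.

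With 500 mg/kg PPH, where 0.0882% of genes were called and 0 members, Me1 read 10.00, 9.39, 10.30 and 9.56, all above the vehicle livers (difference 0.79, limma adjusted p 0.0521). It was the 1 member without overlap, against 5.24% of genes. Acss2 read 10.54, 10.12, 10.52 and 10.74 (0.49, limma adjusted p 0.205). Elovl5 at this dose read 12.53, 12.45, 12.70 and 12.48 and overlapped the vehicle livers, with 1 treated liver above their range and 1 just below it. At 1 and 100 mg/kg 0% of genes were called, and at 10 mg/kg 0.00882%, with 0 members. Over the ranked doses Me1 rose by 0.17 per step (limma adjusted p 0.00343) and Acss2 by 0.13 (0.0205), 2 of 9 members where 1.32% of genes were called.

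The call of Acss2 at 1000 mg/kg was lost without vehicle PPH-202 or PPH-203 or without PPH-236 or PPH-237 of 1000 mg/kg, and its trend without either of the last pair, while Me1 and Elovl5 were called in each of the 25 fits with 1 array left out. With the mean of all probe sets in place of the brightest, Me1 (0.71, limma adjusted p 0.0612) and Elovl5 (-0.32, 0.102) were not called.

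**Figure D2:**
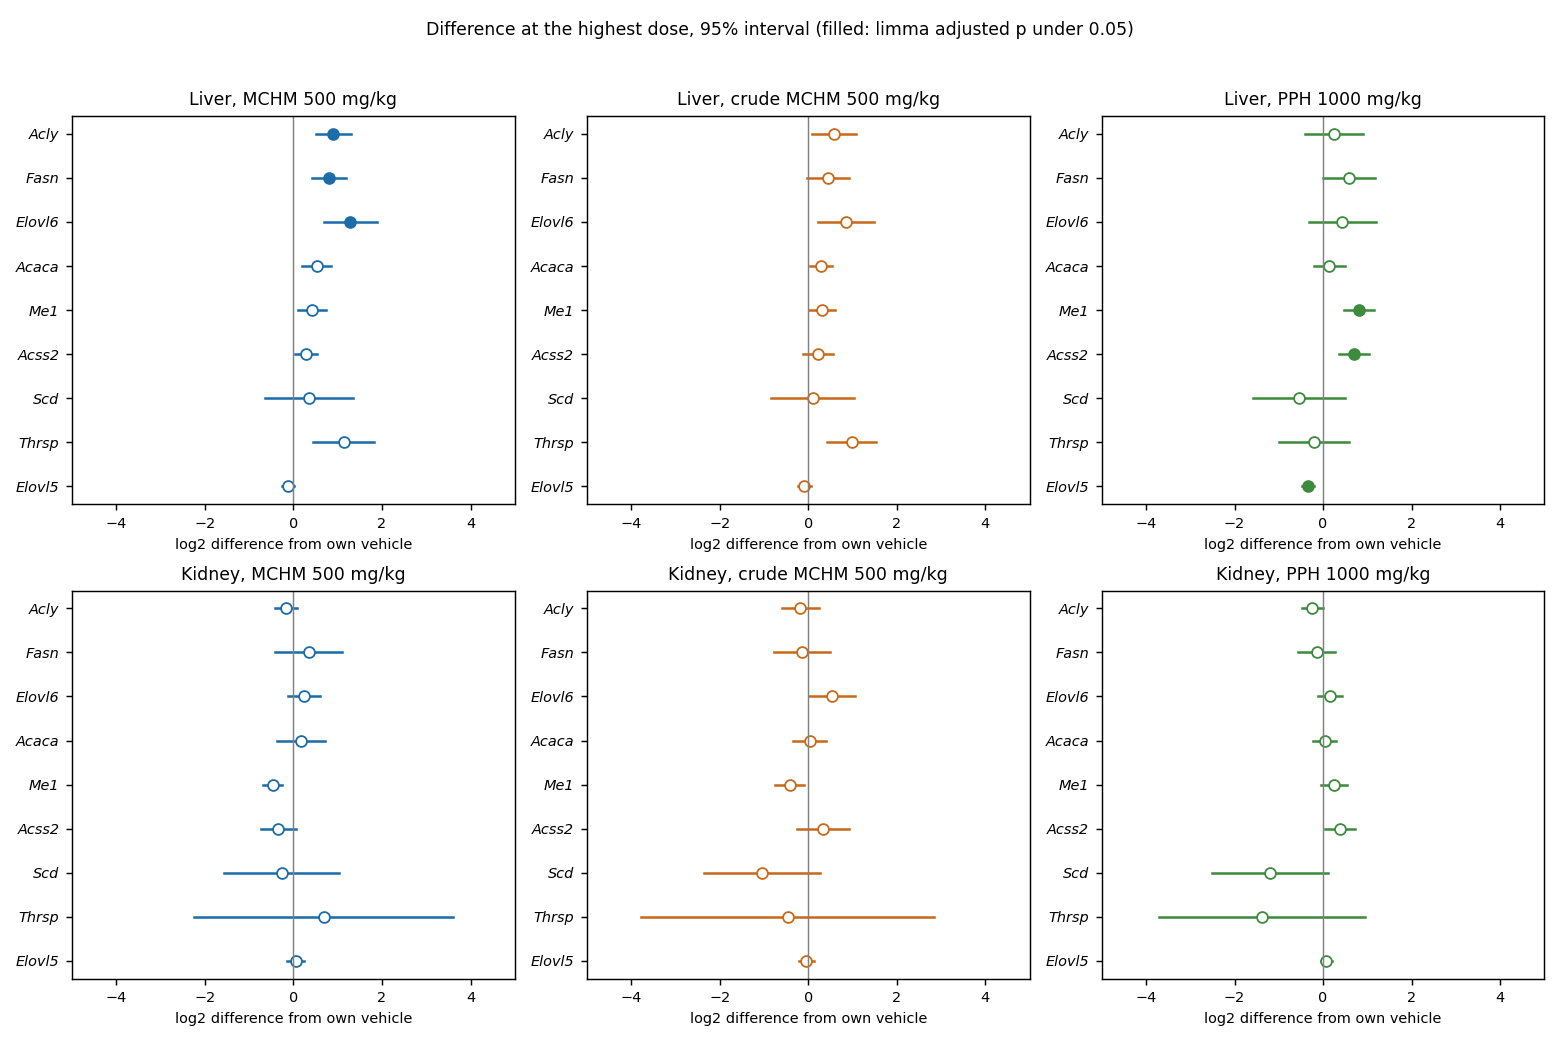
Log2 difference from the own vehicle group at the highest dose (horizontal axis, with 95% intervals) for the 9 members (rows) in liver (upper panels) and kidney (lower panels) for MCHM 500, crude MCHM 500 and PPH 1000 mg/kg; filled points have a limma adjusted p under 0.05. Filled points are Acly, Fasn and Elovl6 for MCHM and Me1, Acss2 and Elovl5 for PPH, all in liver.

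Whether the chemicals differ was tested at matched doses, as the difference of both changes from their own vehicles. At 500 mg/kg 0 of 9 members passed for any pair in liver, where 0% of 11624 genes passed for MCHM against crude MCHM, 0.0344% for PPH against MCHM and 0% for PPH against crude MCHM. The largest difference was that of Elovl6, lower with PPH than with MCHM by 1.46 log2 units in size (-1.46, 95% interval -2.39 to -0.52, limma adjusted p 0.22). Thrsp differed by -1.24 between PPH and MCHM (interval -2.21 to -0.26, limma adjusted p 0.371), and Me1 by 0.38 (interval -0.06 to 0.82). Between MCHM and crude MCHM, Elovl6 differed by 0.43 (interval -0.53 to 1.39) and Acly by 0.33 (-0.43 to 1.08). At the other matched doses 0 members passed in liver, with 0.0086% of genes for PPH against MCHM at 10 mg/kg and 0% elsewhere. MCHM and PPH were not matched at 1000 mg/kg, and the differing lists of called members at the highest doses are therefore not a test of a difference between them.

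In kidney, 0 of 9 members were called at any dose of any chemical. The background was low for MCHM, with 0.0177% of 11277 genes called at 500 mg/kg, 0% at its lower doses and 0.124% for the trend, and it was 0% for every dose of crude MCHM and for its trend. With 1000 mg/kg PPH 2.03% of 11264 genes were called, and 1.58% for the trend, without a member among them. At lower PPH doses 0% of genes were called.

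Me1 came nearest. It read 9.29, 9.58, 9.30, 9.52 and 9.65 in the kidneys of the MCHM vehicle group and 8.95, 9.22, 8.73 and 9.08 at 500 mg/kg. All treated kidneys were below all vehicle kidneys, with a difference of -0.47 ± 0.11 (SE) and a limma adjusted p of 0.10, and with array weights the call was made (-0.50, limma adjusted p 0.0232). It was the 1 member without overlap, where 3.17% of genes had none. With 500 mg/kg crude MCHM Me1 read 9.68, 9.39 and 9.76 in vehicle kidneys and 9.16, 9.26 and 9.14 in treated ones (-0.42, limma adjusted p 0.317). Elovl6 read 7.66, 7.23 and 7.69 against 7.72, 8.50 and 7.97 (0.54, limma adjusted p 0.38). These 2 members without overlap compare with 18.6% of genes in groups of 3. In the same groups the 3′ minus 5′ actin signal also had no overlap. It lay between 2.17 and 2.82 in vehicle kidneys and between 1.92 and 2.16 in treated ones, and its part was not tested. With 1000 mg/kg PPH Me1 lay the other way by 0.25 (limma adjusted p 0.42). There Acly read 9.44, 9.38, 9.60, 9.41 and 9.41 against 9.35, 9.02, 9.21 and 9.22, the 1 member without overlap where 5.44% of genes had none (-0.25, limma adjusted p 0.305). Thrsp and Scd differed by more at this dose, with overlap and without a call (-1.38, limma adjusted p 0.614, and -1.19, 0.381). At 500 mg/kg crude MCHM Scd differed by -1.04 (limma adjusted p 0.483).

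For Me1 the chemicals were compared in kidney as in liver. The response to 500 mg/kg PPH was 0.79 log2 units above that to the same dose of MCHM (95% interval 0.41 to 1.17, limma adjusted p 0.175) and 0.74 above that to crude MCHM (interval 0.32 to 1.16, limma adjusted p 0.104). Neither passed, and 0 members did for any pair, where 0% of 11501 genes passed for PPH against MCHM, 0.0956% for PPH against crude MCHM and 0.0261% for MCHM against crude MCHM. With array weights each of the PPH comparisons had 1 called member.

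**Figure D3:**
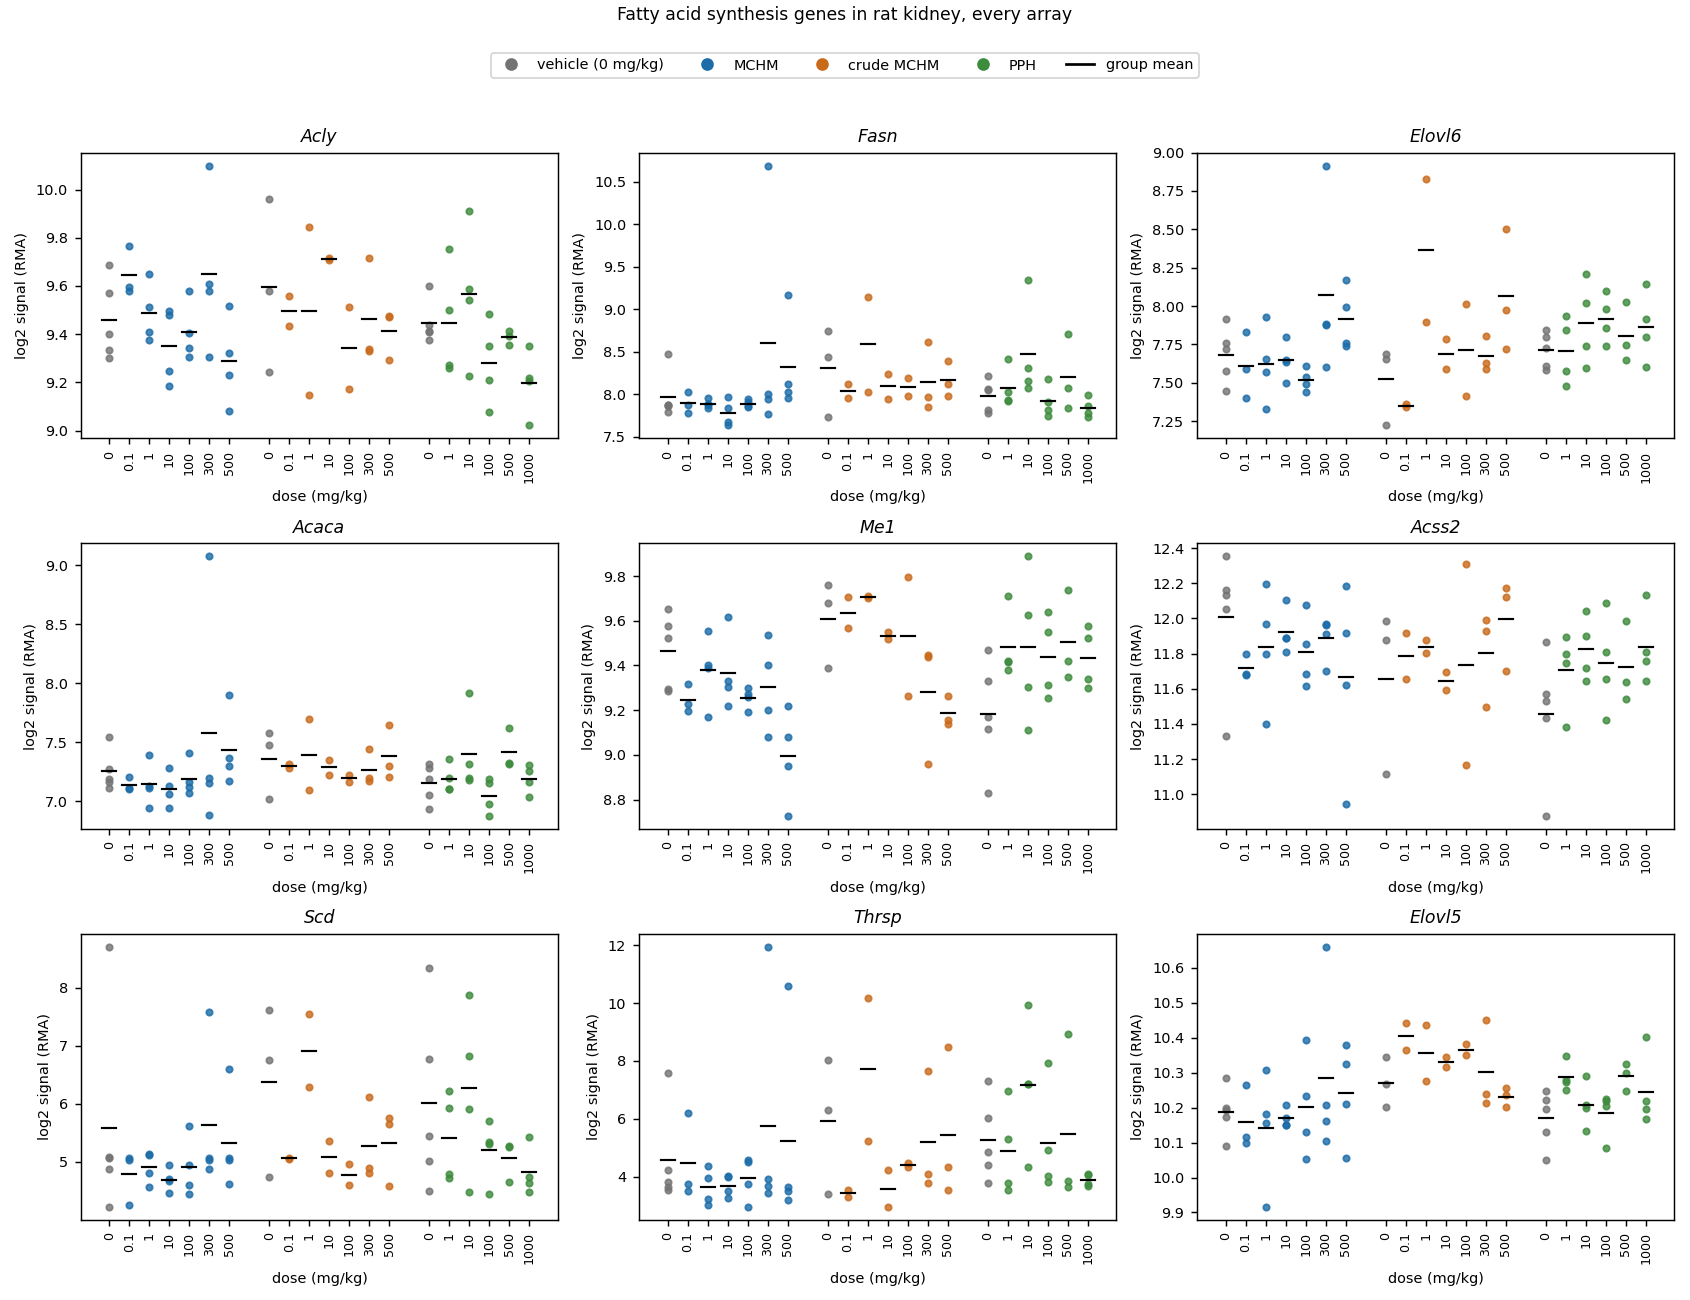
Log2 signal (RMA) of each member in every kidney array (vertical axes, scaled separately per gene) against the dose in mg/kg of MCHM, crude MCHM and PPH with its own vehicle at 0; points are arrays and bars are group means. Single kidneys stand far above their groups for Thrsp, Fasn, Acaca and Scd, with Thrsp at 11.93 in 1 kidney of 300 mg/kg MCHM.

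The kidneys differed among themselves most in Thrsp and Scd. Single kidneys set some group means in the MCHM set, while in other sets several kidneys of a group could be high. Thrsp read 9.92, 7.21, 7.19 and 4.35 at 10 mg/kg PPH, and 8.03, 6.30 and 3.41 in the crude MCHM vehicle kidneys. Thrsp ranged from 2.96 to 11.93 over 69 kidneys with a median of 4.01, and was above the filter level of 4.66 in 21 of them. Scd ranged from 4.23 to 8.70 with a median of 5.06, and was above that level in 54 of 69. In the MCHM set Thrsp read 7.57, 3.63, 3.81, 3.55 and 4.23 in vehicle kidneys, 3.44, 3.93, 11.93 and 3.66 at 300 mg/kg, and 3.51, 3.20, 10.59 and 3.65 at 500 mg/kg. In each of these groups 1 kidney was high and the others were below the filter level. Fasn followed in the same kidneys, at 8.47 against 7.79 to 7.87 in vehicle kidneys, 10.69 against 7.76 to 8.00 at 300 mg/kg and 9.16 against 7.95 to 8.12 at 500 mg/kg. Acaca did as well, at 9.07 against 6.88 to 7.19 at 300 mg/kg and 7.90 against 7.17 to 7.37 at 500 mg/kg.

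The same kidneys were high in fat cell markers. The mean of 13 such markers lay between 5.23 and 9.72 over the kidneys, and the highest were 300 mg/kg MCHM replicate 36 at 9.72 and 500 mg/kg MCHM replicate 42 at 8.76. Adipoq, the fat cell hormone adiponectin, read 10.03 and 8.83 in these kidneys, against a median of 5.16. Next came PPH-219 of 10 mg/kg PPH (7.96), Crude_MCHM-120 of 1 mg/kg crude MCHM (7.83) and PPH-229 of 500 mg/kg PPH (7.52). Of the 10 kidneys highest in Thrsp, 8 were among the 10 highest in fat cell markers. Of the defining markers, Adipoq was above the filter level in 61 of 69 kidneys, Plin1 in 2 and Lep in 0, with Lep at most at 4.26. By group the highest kidney of vehicle, 300 and 500 mg/kg MCHM had a marker mean of 6.32, 9.72 and 8.76, and the group medians were 5.70, 5.75 and 5.72. In the crude MCHM set the marker mean lay between 5.58 and 6.94 in vehicle kidneys and between 5.62 and 7.42 at 500 mg/kg. In the PPH set it lay between 5.66 and 6.75 in vehicle kidneys and between 5.63 and 5.80 at 1000 mg/kg.

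Across the 69 kidneys, the deviation of Thrsp from its group mean correlated with that of the fat cell marker mean at r = 0.95, that of Fasn at 0.91, Acaca at 0.85, Scd at 0.67, Elovl6 at 0.63, Acly at 0.45 and Elovl5 at 0.38. Me1, at -0.03, and Acss2, at -0.28, did not move with the markers in this sense. Without replicates 36 and 42 the values over 67 kidneys were 0.93 for Thrsp, 0.83 for Fasn, 0.70 for Acaca, 0.62 for Scd, 0.43 for Elovl6, 0.23 for Acly and -0.10 for Elovl5. These are descriptions over arrays that share their normalization, and Fasn, Acaca and Scd are also known from fat cells. With the marker mean as a covariate the differences at 500 mg/kg MCHM changed from 0.68 to -0.90 for Thrsp, from 0.34 to -0.06 for Fasn and from 0.18 to -0.09 for Acaca, none of them called. With replicates 36 and 42 left out, a choice made after the data were seen, Fasn differed by 0.06. Thrsp was then above the filter level in fewer than 3 kidneys of the MCHM set and was not tested. In the 81 livers the correlations with the marker mean lay between -0.05 and 0.33. That mean was 7.00 to 7.61 in liver while Adipoq stayed under the filter level. It is therefore not the same measure as in kidney.

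**Figure D4:**
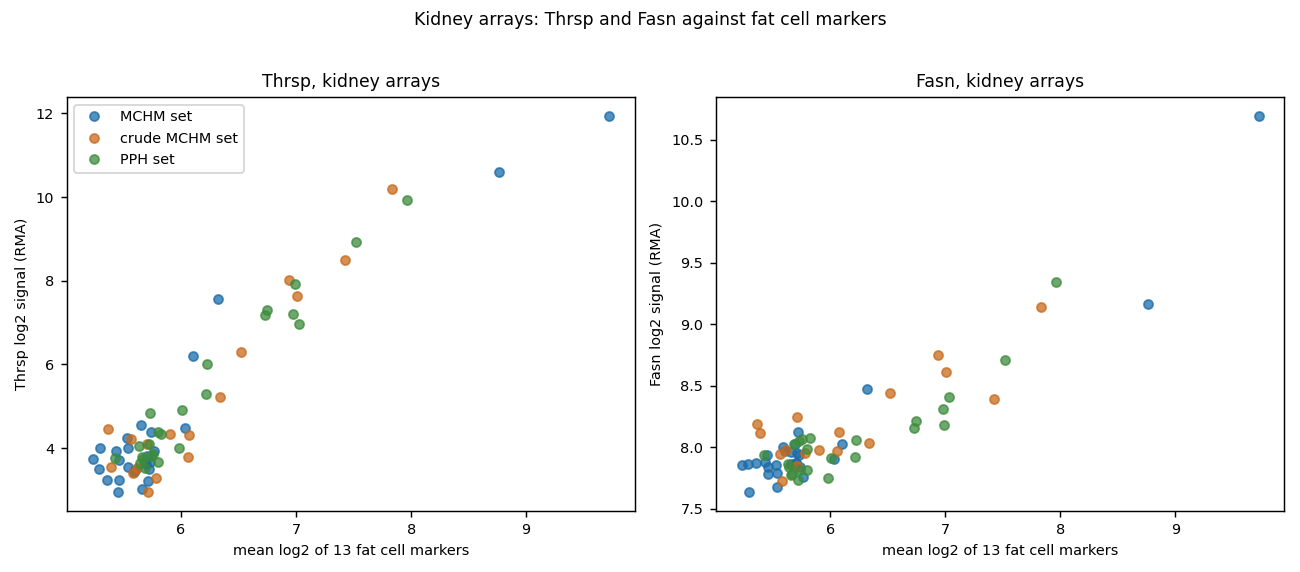
Log2 signal (RMA) of Thrsp (left) and Fasn (right) on the vertical axes against the mean log2 signal of 13 fat cell markers (horizontal axes); each point is 1 of 69 kidney arrays, coloured by chemical set. Both genes rise with the markers, up to the kidney with a marker mean of 9.72, where Thrsp reads 11.93 and Fasn 10.69.

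Liver and kidney were set against each other at the highest doses, as the change in liver minus the change in kidney. With 500 mg/kg MCHM the change of Acly in liver was above that in kidney by 1.08 log2 units (95% interval 0.61 to 1.54, limma adjusted p 0.037) and Me1 by 0.91 (interval 0.52 to 1.30, limma adjusted p 0.0318). These 2 of 9 members were called where 0.0759% of 11861 genes were. For Me1 neither tissue alone passed, and the difference joins a higher mean in liver to a lower one in kidney. Elovl6 had a difference of 1.05 that did not pass (limma adjusted p 0.304). At 1000 mg/kg PPH the change of Elovl5 was lower in liver than in kidney by 0.41 in size (-0.41, interval -0.58 to -0.25, limma adjusted p 0.00725), 1 of 9 members where 0.748% of genes were called. With crude MCHM at 500 mg/kg 0 members were called, where 0.0587% of genes were.

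The MCHM difference between tissues was not stable. With the replicate number as a block, which joins liver and kidney of the same number, 0 members were called (Acly 1.00, limma adjusted p 0.116, and Me1 0.79, 0.115), and 0 were called without the kidneys of replicates 36 and 42 or with the mean of all probe sets. The block fit also left out arrays whose number was held by 1 tissue only, such as liver vehicle replicate 7 and kidney vehicle replicate 5. When arrays were left out singly, both calls held in 3 of 18 fits. One call was left without liver vehicle replicate 4 or 8, kidney vehicle replicate 3 or kidney 500 mg/kg replicate 41. None was left without liver vehicle replicate 3 or 7, liver 500 mg/kg replicate 40, 42 or 43, kidney vehicle replicate 4, 5 or 8, or kidney 500 mg/kg replicate 40, 42 or 43. The Elovl5 difference with PPH was called in 18 of 18 fits, and with the mean of all probe sets it was -0.35 and not called (limma adjusted p 0.296).

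Within groups most members were among the most variable genes of the liver. The SD within groups was 0.77 log2 units for Scd, 0.53 for Thrsp, 0.51 for Elovl6, 0.40 for Acly and 0.37 for Fasn, between the 97.1 and the 99.7 percentile of 11624 genes, whose median was 0.16. Acaca and Me1, each at 0.24, and Acss2 at 0.23 lay between the 83.3 and 85.1 percentile. Elovl5 was the exception, at 0.09 and the 8.28 percentile. In kidney the order began with Thrsp at 2.10, Scd at 0.99 and Fasn at 0.47, and Elovl5 was again lowest at 0.11.

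The liver members varied together between rats of a group. Over 81 livers, deviations from the group means correlated at 0.88 for Acly with Fasn, 0.79 for Acly with Elovl6, 0.78 for Fasn with Elovl6, 0.72 for Elovl6 with Thrsp and 0.70 for Acly with Thrsp. With the mean of the other members, Fasn correlated at 0.87, Acly at 0.85, Elovl6 at 0.74, Thrsp at 0.70, Me1 at 0.66, Acaca at 0.65, Acss2 at 0.55, Scd at 0.51 and Elovl5 at 0.30. In the 69 kidneys the closest pairs were Acaca with Fasn at 0.94 and Fasn with Thrsp at 0.87, both of which follow the fat cell markers. Acss2 and Me1 formed a pair of their own at 0.67, and Acss2 ran against Acly (-0.50), Scd (-0.48) and Thrsp (-0.37). These values describe arrays that share their processing, and no test was made of them. Livers and kidneys of the same replicate number, 65 pairs, showed little of this in common, with r between -0.19 for Scd and 0.24 for Elovl6.

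**Figure D5:**
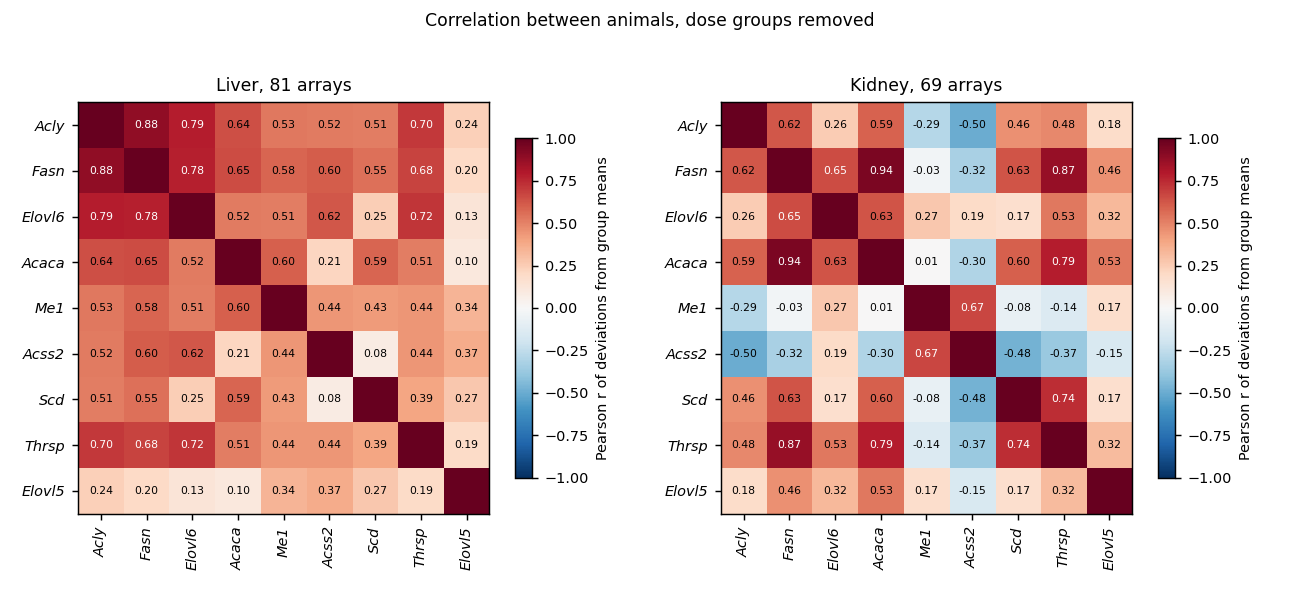
Pearson r between members (rows and columns) of the deviations of arrays from their group means, for 81 liver arrays (left) and 69 kidney arrays (right); colour runs from -1 to 1. In liver Acly, Fasn, Elovl6 and Thrsp correlate at 0.68 or more with each other, and in kidney Acss2 is negative with most members and positive with Me1.

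The genes whose deviations were most like the mean of the members were named by rank. In liver they were Fabp5, a fatty acid binding protein (r = 0.76), the cholesterol synthesis enzymes Nsdhl (0.75), Fdps (0.73) and Lss (0.67), Hes6 (0.70), Pnpla3 (0.67), Acat2 (0.65) and the liver pyruvate kinase Pklr (0.62), over 81 arrays and 11624 genes. In kidney they were Agpat2 (0.89), Grifin (0.88), the lipoprotein lipase Lpl (0.87), Gnas (0.86), Angptl8 (0.85), the fatty acid carrier Cd36 (0.85), Pparg (0.84) and S100b (0.84), over 69 arrays. Lpl and Pparg are on the list of fat cell markers.

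The rest of the pathway in liver was read from lists. Of the lipogenic regulators, 20 genes, 0 were called at the highest dose of any chemical. Srebf1, the factor that raises fatty acid synthesis genes, differed by 0.61 with MCHM (limma adjusted p 0.142), 0.32 with crude MCHM (0.554) and -0.26 with PPH (0.653). Insig1, a sterol-responsive regulator of the same factors, differed by 0.94 (limma adjusted p 0.102), -0.10 and 0.76 (0.294). Mlxipl, the glucose-responsive factor, differed by 0.15, 0.19 and -0.06, and Nr1h3, the liver X receptor, by 0.18, 0.17 and -0.02. Insig2 differed by 0.15, 0.07 and 0.09.

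Of the list of other fatty acid synthesis and desaturation, 16 genes were measured, and Mecr, the mitochondrial enoyl reductase, alone was called at the 3 highest doses. It rose by 0.38 with MCHM (limma adjusted p 0.0333), 0.42 with crude MCHM (0.0334) and 0.52 with PPH (0.00463), and the medians of the list were 0.01, 0.05 and 0.05. Of glycolysis feeding the pathway, 11 genes, 0 were called, with Pklr at 0.19, 0.21 and -0.31. Of triglyceride synthesis, 1 of 12 fell with crude MCHM, Agpat3 by -0.40 (limma adjusted p 0.00603), and 0 changed with MCHM or PPH; Pnpla3 differed by 0.52, 0.65 and 0.89 and Gpam by 0.52, 0.00 and 0.61, none called. Of NADPH supply, Tkt of the pentose phosphate path rose with PPH (0.35, limma adjusted p 0.0489), 1 of 8.

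The cholesterol synthesis list moved with PPH, as 9 of 13 measured genes rose at 1000 mg/kg with a median of 0.68. Acat2 rose by 1.14 (limma adjusted p 0.0061), the squalene synthase Fdft1 by 0.68 (0.0015) and the mevalonate kinase Mvk by 0.62 (0.00733). At 500 mg/kg MCHM and crude MCHM 1 of 13 rose, the sterol reductase Tm7sf2, by 0.75 (limma adjusted p 0.00272) and 0.51 (0.0161). Of fasting and fatty acid oxidation, 11 genes, Ehhadh and Cyp4a1 rose with MCHM (0.64 and 0.69) and with crude MCHM (0.74 and 0.79), and 0 passed with PPH. Of the circadian clock list, 11 genes, 0 were called at any highest dose. These lists overlap the members in function and were chosen with results of these data known, so their counts are given as description.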

How the data were processed

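Messenger RNA of 151 liver and kidney samples was read on 1-colour arrays. The authors deposited log2 values made with RMA, per the submitters' processing notes, which corrects background, normalizes by quantiles and summarizes probe sets and so can shrink small changes. The version of RMA and whether sets were processed together are not given in the sources used here. These log2 values were used as deposited, with no value imputed. The number of arrays limits the precision.

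GEO's platform annotation, which can be old, gave 1 symbol for 20832 probe sets, several for 436 (not used) and none for 9831 (not analysed here). Some genes of the lists are not reported here. The brightest probe set was kept per gene and tissue. For the comparison of tissues 1 probe set served both.

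A gene was tested where its log2 value exceeded the tissue's 40th percentile, which was 4.69 in liver and 4.66 in kidney, on 3 or more of the fitted arrays. limma 3.58.1 (lmFit and eBayes) was run in R 4.3.3, and files were read with the data.table package (version 1.17.8). There was 1 fit per tissue and chemical, two-sided, with Benjamini-Hochberg adjustment across all genes tested and a call at an adjusted p under 0.05. Chemical and tissue differences were tested as differences of contrasts in joint fits. The trend was linear in the rank of the dose. Python 3.11.15, numpy 2.4.6 and matplotlib 3.10.9 drew the figures. The fits were tried on simulated data with independent noise per gene, which lack the shared variation between genes seen here. Changes of 1 log2 unit were recovered in 84.8% to 98.5% of genes, and changes of 0.5 in 30.8% to 88.1%. Of the calls, 1.29% to 9.43% were false.

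The genes named were the members, the 8 genes per tissue with the highest r to the members' mean deviation, Srebf1, Mlxipl, Insig1, Insig2, Nr1h3, Pklr, Pnpla3 and Gpam, and, for each list, at most 3 of its called genes at a highest dose, those of smallest adjusted p. The members, lists and tests were chosen with earlier results of these data known.

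Liver and kidney samples share replicate numbers, and the labels do not state that a number is 1 rat. Over 65 same-numbered pairs the r of deviations from group means lay between -0.10 and 0.25, with a median of 0.12, and 43 were over 0.1. The fit with the number as a block is therefore given as an alternative. Also tried were array weights, a further quantile normalization, testing without the filter, averaging a gene's probe sets, a fit of all arrays of the tissue, only the chemicals compared, the fat cell marker mean as a covariate, the left-out column included, and each array left out in turn.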

Additional observations from a re-analysis of the deposited data

Results flagged for a closer look

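Outliers were sought in 99 pairs of a member with a group of 4 or 5 arrays, and 9 pairs held a sample far from the rest of its group. Chance gives about 1 in 20 for a single pair. The pairs share arrays and the members vary together, so the count of 9 cannot be set against that rate. In liver, Acly read 12.19 in Crude_MCHM-138 of 300 mg/kg, with the next value at 11.35, Acss2 read 9.90 in Crude_MCHM-140 of 500 mg/kg, with the next at 10.48, and Elovl6 read 6.79 in PPH-203 of the vehicle group, with the next at 7.88. In kidney, Acly read 9.60 in PPH-205 of the vehicle group, with the next at 9.44. Replicate 3 of the MCHM vehicle kidneys stood apart in 3 members, with Fasn at 8.47, Scd at 8.70 and Thrsp at 7.57, against next values of 7.87, 5.08 and 4.23. Replicate 42 of the 500 mg/kg MCHM kidneys stood apart in 2, with Fasn at 9.16 and Thrsp at 10.59, against 8.12 and 3.65.

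By the test of the difference between liver and kidney, the response differed for Acly (1.08) and Me1 (0.91) at 500 mg/kg MCHM and for Elovl5 (-0.41) at 1000 mg/kg PPH. The first pair was lost in most fits with 1 array left out.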

How the results depend on the processing

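Of the counts of called members under alternatives other than single arrays left out, 157 stayed within 1.5 times the main count and 17 moved. Many results had 0 members called in the main analysis, and counts that stayed at 0 are among the 157. Array weights gave 5 for the MCHM liver trend (3 in the main analysis), 1 for 500 mg/kg crude MCHM in liver, for lower PPH doses in liver, for 500 mg/kg MCHM and its trend in kidney, and for PPH against MCHM and against crude MCHM in kidney (0 in each main analysis). A fit of all arrays of a tissue gave 1 for 500 mg/kg MCHM in liver (3), 0 for lower crude MCHM doses (2) and 1 for lower PPH doses (0). For lower crude MCHM doses in liver no filter and further quantile normalization each gave 1. With the mean of all probe sets 1 was called for 1000 mg/kg PPH in liver (3) and 0 for the tissue difference with MCHM (2) and with PPH (1). For the MCHM tissue difference the replicate block gave 0, as did leaving out both kidneys high in fat cell markers, which was added after the data were seen; the block changed no other count.

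Leaving out arrays singly gave 0 to 3 members for 500 mg/kg MCHM, 3 to 4 for its trend, 0 to 3 for lower crude MCHM doses, 3 to 6 for the crude MCHM trend, 2 to 3 for 1000 mg/kg PPH, 0 to 1 for lower PPH doses and 1 to 3 for the PPH trend in liver, 0 to 2 for the MCHM tissue difference and 7 to 8 for MCHM vehicle rats. The 1 call at lower PPH doses appeared without PPH-218 or PPH-219 of 10 mg/kg, PPH-225 of 100 mg/kg, PPH-230 of 500 mg/kg or PPH-235 of 1000 mg/kg. The PPH trend kept 1 call without PPH-236 or PPH-237 of 1000 mg/kg.

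Signs turned only among differences that were not called. With fat cell markers as a covariate, 500 mg/kg MCHM in kidney gave -0.087 for Acaca, -0.0053 for Elovl5, -0.058 for Fasn and -0.90 for Thrsp. At 500 mg/kg crude MCHM, array weights gave -0.0010 for Scd in liver and -0.074 for Acaca in kidney, and the mean of all probe sets gave -0.071 for Acaca and 0.17 for Elovl5 in kidney. With single arrays left out, Scd ranged from -0.24 to 0.50 at 500 mg/kg crude MCHM in liver, Acly from -0.063 to 0.44 and Thrsp from -0.54 to 0.029 at 1000 mg/kg PPH in liver, and Scd from -0.68 to 0.51 and Thrsp from -1.11 to 1.43 at 500 mg/kg MCHM in kidney. At 500 mg/kg crude MCHM in kidney Fasn ranged from -0.43 to 0.083, Thrsp from -1.99 to 0.59 and Acaca from -0.14 to 0.14, and at 1000 mg/kg PPH Acaca ranged from -0.019 to 0.085. The cause of these moves was not tested. Groups of 2 or 3 kidneys, members with low signal in most kidneys (Thrsp, Scd) and labels that tie no number to 1 rat limit these results.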

Other observations

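In the kidneys of 1000 mg/kg PPH, where 0 members and 2.03% of all genes were called, some other genes of the lists were called. Of fasting and fatty acid oxidation, 3 of 10 measured genes rose: Ehhadh, the peroxisomal bifunctional enzyme, by 0.71 (limma adjusted p 4.21e-05), Acadm, the medium-chain dehydrogenase, by 0.28 (0.0104) and Pck1, the gluconeogenic carboxykinase, by 0.52 (0.0323). Hacd1, of fatty acid elongation, fell by 0.43 (limma adjusted p 0.029), 1 of 16 in the list of other fatty acid synthesis and desaturation. The acyltransferase Mogat2 rose by 0.60 (limma adjusted p 0.00271), 1 of 12 in triglyceride synthesis. Of glycolysis feeding the pathway, Khk, the fructokinase, rose by 0.30 (limma adjusted p 0.0484) and the glucose carrier Slc2a2 fell by 0.53 (0.026), of 11 measured. The cholesterol synthesis list, with 9 of 13 genes called in the livers of the same dose, had 0 of 13 called in kidney and a median of -0.12 there, and the difference between the tissues was not tested for this list.

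In the livers of 1000 mg/kg PPH the lipid droplet gene Cidea, on the list of fat cell markers, rose by 1.21 (limma adjusted p 0.0315), while Adipoq there lay between 3.64 and 3.76.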
